A study of Homo sapiens with 10 samples.

Results

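The collagen genes were taken as every symbol of the count tables made of COL, a number, A and a number, the naming pattern of collagen alpha chains. This gave 44 genes of 28265, and 43 of them had at least 5 counts in at least 2 libraries and could be tested among 21014 genes. The one collagen gene left out of the tests was *COL6A5*. They were followed in NKX2-1GFP+ cells sorted from thyroid organoids at days 16, 23, 31, 38 and 45 of differentiation, with 2 libraries per day.

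All cells came from the human ESC line ESIBIe003-A-6, a HES3 derivative with GFP inserted into one *NKX2-1* allele and a lentiviral transgene expresses *NKX2-1* and *PAX8* under doxycycline. Embryoid bodies were embedded in Matrigel, treated with activin A and then doxycycline, and the cells were later freed with dispase and collagenase before 10000 GFP+ cells per sample were sorted. By the study's methods, the cells were in basal medium up to day 16, were given 8-br-cAMP, which enters cells and acts as cAMP does, before days 23 and 31, then recombinant TSH with the glucocorticoid dexamethasone before day 38, and in addition SB431542, which blocks the kinases of TGFβ receptors, before day 45. The labels differ in that they name cAMP for day 16 and TSH with SB but no dexamethasone for day 45. They also name cAMP for day 31 and TSH with dexamethasone for day 38. The study's schedule starts TSH with dexamethasone shortly before day 31, and SB431542 at or shortly before day 38. Day 31 is treated here as a cAMP day, by its label. Days 23 and 31 were both labelled cAMP, and at each of the other 3 steps time and medium changed together and cannot be told apart. The GFP reporter reads *NKX2-1* promoter activity in a single genetically modified line, each library pools several wells, and the replicates are separate samples by their labels.

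Collagens are proteins in which 3 alpha chains wind into a triple helix built of glycine-X-Y triplets. Fibrillar chains are trimmed and assemble into the fibrils of connective tissue, FACIT chains sit on the fibril surface, collagen IV forms the sheet of the basement membrane, and collagen VI forms beaded filaments at its outer face. In the thyroid each follicle rests on a basement membrane, and fibrillar collagens are mostly known as products of the stromal cells between follicles. Chains are hydroxylated and glycosylated in the endoplasmic reticulum, where prolyl hydroxylases need ascorbate as a cofactor, and are exported, cleaved and crosslinked outside the cell.

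In the reference proteins of the 44 genes, the longest uninterrupted glycine-X-Y stretch ranged from 216 to 342 triplets in the 11 fibrillar chains, from 38 to 66 in the 6 collagen IV chains and from 32 to 113 in the 10 FACIT chains. Collagen IV chains are broken into 22 to 27 such stretches of at least 3 triplets, and fibrillar chains into 2 to 4. These features come from GENCODE 44 and were not measured in the cells.

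The collagen genes together took 0.382 and 0.336% of the counts in the day 16 libraries, 0.314 and 0.329% on day 23 and 0.317 and 0.349% on day 31. The share was 0.689 and 0.753% on day 38 and 0.676 and 0.555% on day 45. The 4 libraries of the TSH phase were all above the 6 earlier ones, and the day 31 pair overlapped those of days 16 and 23. In CPM, the counts scaled to a common library size with TMM factors, the summed collagen level was 3517 ± 193 on day 16, 3061 ± 94.3 on day 23, 3118 ± 225 on day 31, 7838 ± 221 on day 38 and 6462 ± 910 on day 45 (SD, n = 2). Counted reads per library ran from 7247268 to 10333933, and a floor of 3 counts corresponded to 0.307 to 0.435 CPM. In these bulk samples a change in the number of cells of a type and a change in RNA per cell cannot be told apart.

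**Figure D1:**
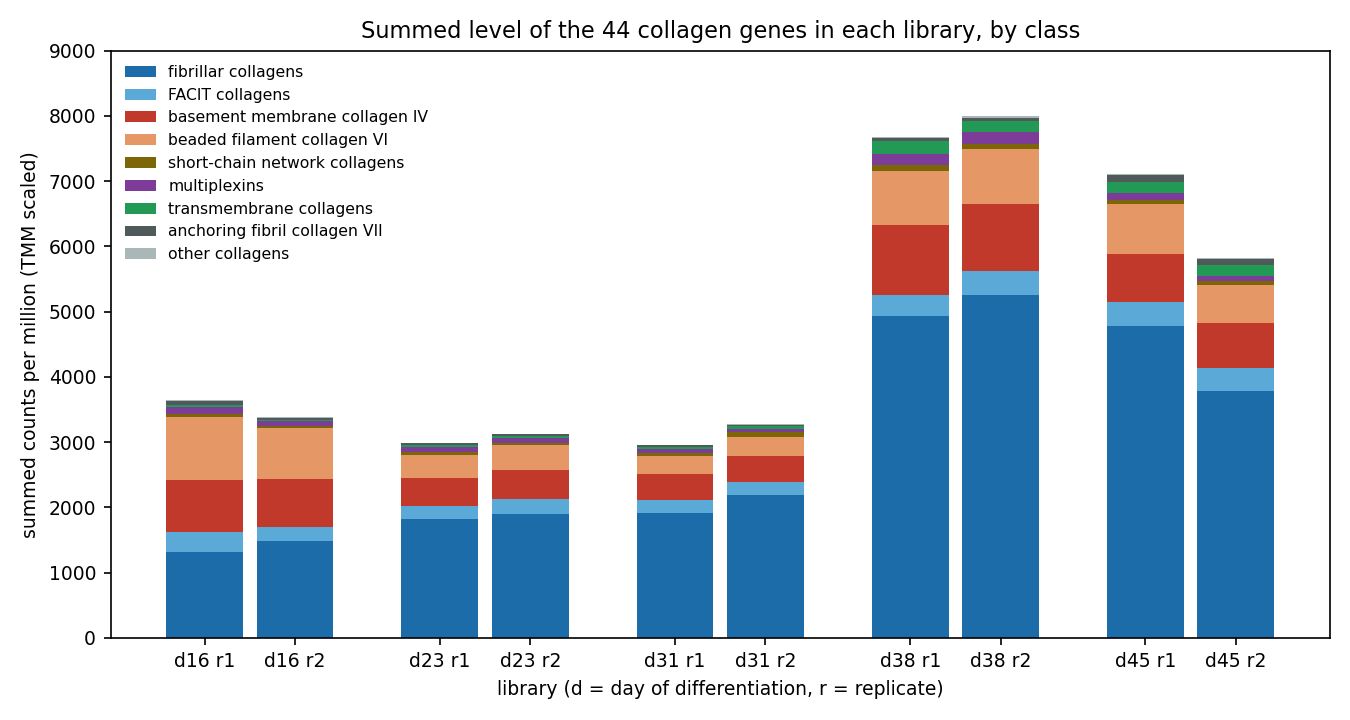
Stacked bars give the summed CPM of the collagen genes in each of the 10 libraries, split into 9 classes of chains (linear axis from 0, 2 libraries per day). The fibrillar class is the largest block in every library, and the day 38 libraries reach 7682 and 7995 CPM against 2959 and 3276 on day 31.

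The shares of the fibrillar, collagen VI and collagen IV classes differed mainly between day 16 and the later days. Fibrillar chains held 39.9% of the collagen counts on day 16, 60.8% on day 23, 66.0% on day 31, 65.0% on day 38 and 66.2% on day 45. Collagen VI chains held 25.0, 12.0, 9.28, 10.7 and 10.53% on these days, and collagen IV chains 21.6, 14.4, 12.7, 13.3 and 11.1%. Shares of single chains moved later too, from day 31 to day 38 *COL1A2* from 5.81 to 14.8% and *COL6A3* from 1.99 to 6.20%. At that step *COL5A2* went from 9.91 to 3.73%, *COL4A5* from 8.38 to 4.17% and the transmembrane class from 1.055 to 2.48%. Per kilobase of exon, the scale on which genes can be compared, *COL3A1* was the highest collagen at every day, with 60.6 CPM per kb on day 16 and 293 on day 38. Over all libraries *COL3A1* averaged 183 CPM per kb, *COL1A1* 61.7, *COL1A2* 51.4, *COL6A1* 31.2 and *COL5A2* 29.0. With the length of the longest transcript in place of the exon union, *COL3A1*, *COL1A1* and *COL1A2* stayed the highest, *COL4A5* was the next at 44.1, and *COL5A2* had rank 7 at 31.1. The order also moved between days, with *COL6A3* at rank 3 on day 16 and rank 19 on day 31. *COL2A1* was the next highest after *COL3A1* on day 16, at 41.3 CPM per kb, and stood at rank 26 of 44 by day 45, at 2.04.

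The sorted cells carried the transcripts of their label. *NKX2-1*, whose reporter was used for the sort, was at 90.0 and 83.8 CPM on day 16, 154 and 133 on day 38 and 58.1 and 66.7 on day 45, and *PAX8* ranged from 477 to 727 over the 10 libraries, although reads of the transgene cannot be told apart from those of the endogenous genes. From day 38 to day 45, where 11 of 43 tested collagens and 6.35% of all genes tested were called lower by edgeR, *NKX2-1* (−1.20, adjusted p = 6.3e-07), *HHEX* (−0.86, adjusted p = 3.7e-05) and *FOXE1* (−0.82, adjusted p = 4.01e-05) fell, 3 of the 7 thyroid markers, and *TG* rose. The part of this in the collagen changes was not tested. *TG*, which encodes thyroglobulin, was at 10.7 and 11.7 CPM on day 16 and at 7961 and 7523 on day 45. The epithelial cadherin gene *CDH1* ranged from 494 to 708 CPM. The keratins of simple epithelia were lower in the later libraries, *KRT18* at 430 and 459 CPM on day 16, 293 and 331 on day 31, 156 and 142 on day 38 and 186 and 203 on day 45, and *KRT8* at 806 and 813, 475 and 529, 380 and 341, and 428 and 436 CPM on the same days. *KRT18* was called higher from day 38 to day 45 (0.38, adjusted p = 0.0453), a call lost without any one of the 8 libraries from day 23 on (adjusted p from 0.0546 to 0.377).

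From day 16 to day 23, the first week on cAMP, 8 of the 43 collagens were called higher and 8 lower by the quasi-likelihood test of edgeR, with p-values adjusted by Benjamini-Hochberg over all genes tested. The background in this comparison was 5.6% of all tested genes called higher and 5.33% called lower. *COL15A1*, *COL12A1*, *COL24A1*, *COL14A1*, *COL3A1*, *COL5A2*, *COL6A1* and *COL5A1* rose, and *COL6A3*, *COL19A1*, *COL2A1*, *COL4A2*, *COL4A1*, *COL4A6*, *COL7A1* and *COL1A2* fell. The median log2 fold change was −0.29 over the collagens and −0.02 over all genes tested. Without day 23 replicate 2, 5 were called higher and 5 lower.

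From day 23 to day 31, the second week on cAMP, *COL12A1*, *COL9A3*, *COL14A1*, *COL27A1*, *COL5A1* and *COL5A2* were called higher, 6 genes against a background of 1.58%. *COL22A1*, *COL6A3* and *COL4A2* were called lower, 3 genes against a background of 0.666%. Without day 23 replicate 1, or without day 31 replicate 2, the 6 became 2.

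The largest number of collagen calls between successive days fell between days 31 and 38, when TSH and dexamethasone replaced cAMP. Here 19 collagens were called higher against a background of 8.8%, and 2 lower, *COL24A1* and *COL2A1*, against a background of 6.23%. The 19 were *COL15A1*, *COL23A1*, *COL6A3*, *COL4A1*, *COL4A2*, *COL1A2*, *COL21A1*, *COL14A1*, *COL25A1*, *COL1A1*, *COL11A1*, *COL5A1*, *COL18A1*, *COL9A3*, *COL3A1*, *COL8A1*, *COL6A2*, *COL22A1* and *COL6A1*, in order of log2 fold change. The median log2 fold change was 0.96 over the collagens and 0 over all genes tested. Scaling by library size without TMM factors shifted the median of all genes by −0.20 and called 1183 of them higher and 2368 lower, against 1850 and 1310 with TMM factors; the collagens then counted 17 higher and 2 lower. Leaving out 1 library in turn gave 14 to 21 collagens higher, and the 2 called lower became 1 without any one of the 4 libraries compared.

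Over the last week, from day 38 to day 45, with SB431542 now in the medium, 11 collagens were called lower against a background of 6.35%, and 2 higher, *COL20A1* and *COL7A1*, against a background of 4.85%. The 11 were *COL26A1*, *COL11A1*, *COL2A1*, *COL22A1*, *COL6A3*, *COL8A1*, *COL18A1*, *COL4A1*, *COL5A2*, *COL4A2* and *COL4A5*. The median log2 fold change was −0.34 over the collagens and −0.02 over all genes. The 11 became 7 without day 38 replicate 1 or replicate 2 and 5 without day 45 replicate 2. The 2 called higher became 0 without day 38 replicate 2 or without day 45 replicate 1. This comparison and the one before share the day 38 libraries.

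From day 16 to day 45, 20 collagens were called higher (background 12.9%) and 7 lower (background 11.7%). The 7 were *COL2A1*, *COL19A1*, *COL22A1*, *COL9A2*, *COL4A6*, *COL6A3* and *COL4A5*. A test of any change over the 5 days called 33 of the 43 collagens, with 36.3% of all genes tested called. Of the 43, 11 were called in none of the 5 comparisons.

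**Figure D2:**
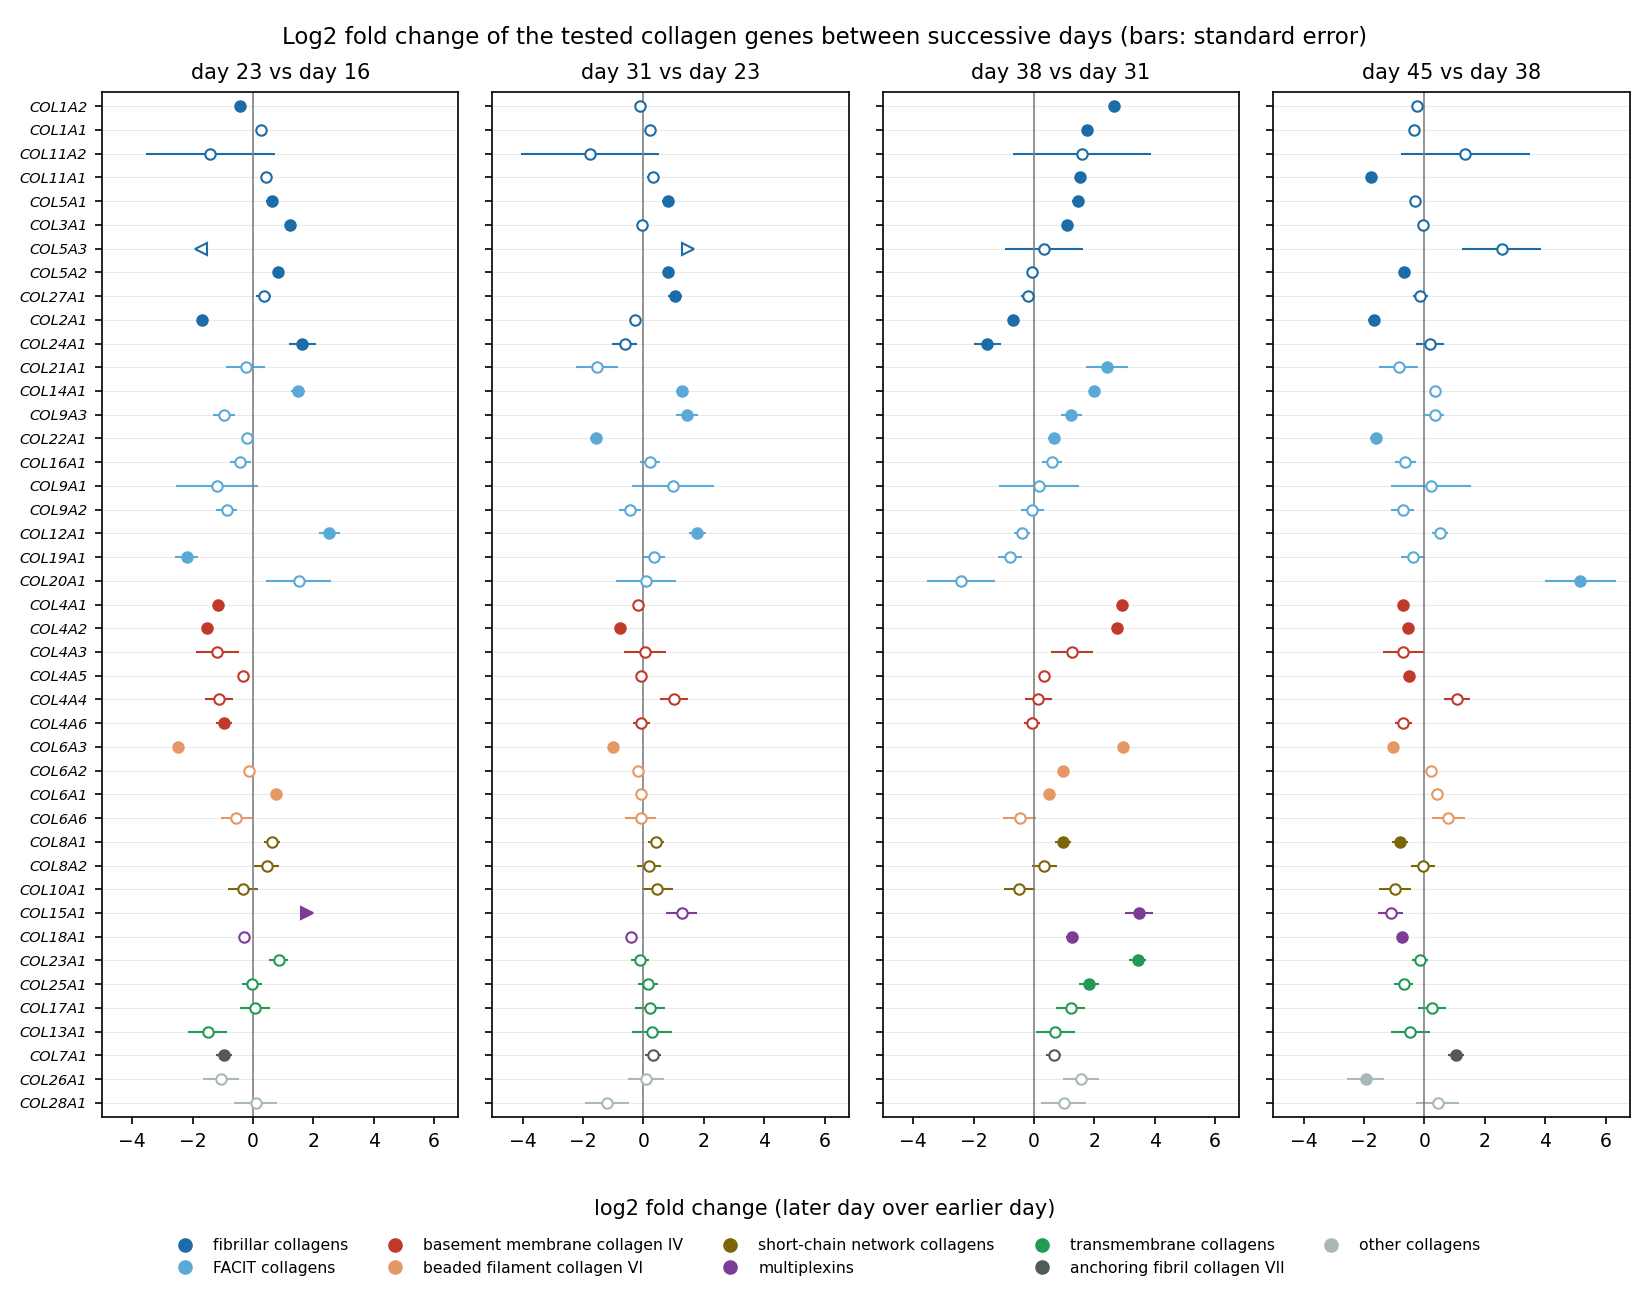
Each dot is the log2 fold change of 1 collagen gene between successive days, with its standard error as a bar; filled dots were called by edgeR's quasi-likelihood test at an adjusted p of 0.05, and colours mark the class. Triangles give a bound, pointing away from 0, where one day had 0 counts in both libraries; in the panel for day 38 against day 31 the filled dots lie mostly to the right of 0.

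Of the 11 fibrillar genes, 5 rose from day 31 to day 38 and 2 fell (*COL24A1* and *COL2A1*), against 8.8 and 6.23% of all genes tested. The 5 were called again when each library was left out in turn, and the 2 became 1 without any one of the 4 libraries compared. *COL1A1* and *COL1A2* encode the chains of collagen I, the main fibril protein of connective tissue, which holds 2 α1 chains and 1 α2 chain. *COL1A1* (chr17:50184101-50201632, GRCh38) was at 256 and 214 CPM on day 16, 261 and 299 on day 23, 326 and 318 on day 31, 1049 and 1116 on day 38 and 961 and 754 on day 45. *COL1A2* (chr7:94394895-94431227) was at 254 and 283, 220 and 178, 154 and 210, 1150 and 1163, and 1061 and 883 CPM in the same order. Both genes stayed between 154 and 326 CPM through day 31, and all 4 TSH-phase libraries were far above the 6 earlier ones. The log2 fold change between day 31 and day 38 was 1.75 (standard error 0.13, adjusted p = 1.22e-12) for *COL1A1* and 2.67 (standard error 0.14, adjusted p = 2.63e-16) for *COL1A2*. Before this, *COL1A2* had fallen from day 16 to day 23 by 0.43 on the log2 scale (adjusted p = 0.032). That small change was not called without day 16 replicate 2 (adjusted p = 0.149), without day 23 replicate 2 (adjusted p = 0.394), with library sizes alone (adjusted p = 0.0567) or in a fit of only the 4 libraries compared (adjusted p = 0.0752). From day 38 to day 45 neither collagen I gene was called, with log2 fold changes of −0.34 (adjusted p = 0.0814) and −0.25 (adjusted p = 0.269).

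*COL3A1* (chr2:188974373-189012746), the single chain of collagen III, which co-assembles with collagen I, rose in a pair of steps rather than at once. It was at 309 and 509 CPM on day 16, 957 and 953 on day 23, 826 and 1028 on day 31, 1903 and 2061 on day 38 and 2144 and 1677 on day 45. The steps were log2 fold changes of 1.22 to day 23 (standard error 0.15, adjusted p = 2.27e-07) and 1.10 from day 31 to day 38 (standard error 0.15, adjusted p = 7.83e-07). The libraries of days 23 and 31 overlapped, as did those of days 38 and 45.

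*COL2A1* (chr12:47972967-48004554), the collagen II chain known from cartilage and expressed in many embryonic epithelia, went the opposite way. It was at 288 and 262 CPM on day 16, 79.6 and 90.6 on day 23, 67.2 and 73.4 on day 31, 44.4 and 43.4 on day 38 and 10.3 and 16.8 on day 45. No library of a later day reached a library of an earlier one. The log2 fold change between day 16 and day 45 was −4.32 (standard error 0.20, adjusted p = 2.2e-18), with called steps of −1.69 to day 23 (adjusted p = 5.58e-09), −0.68 from day 31 to day 38 (adjusted p = 0.00554) and −1.68 from day 38 to day 45 (adjusted p = 7.95e-08). The step to day 38 was not called without day 31 replicate 2 (adjusted p = 0.066) or day 38 replicate 2 (adjusted p = 0.0614).

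*COL11A1* (chr1:102876467-103108872), whose chain seeds the fibrils of collagen II and assembles with collagen V chains, had a single peak. It was at 48.0 and 33.6 CPM on day 16, 52.7 and 58.6 on day 23, 67.6 and 70.2 on day 31, 192 and 206 on day 38 and 49.8 and 67.2 on day 45. The day 38 pair stood apart from the other 8 libraries. It rose by 1.53 on the log2 scale to day 38 (standard error 0.18, adjusted p = 6.86e-08) and fell by 1.76 to day 45 (standard error 0.18, adjusted p = 9.57e-09). Its change from day 16 to day 45, a log2 fold change of 0.52 (adjusted p = 0.0365), was not called without day 16 replicate 2, day 31 replicate 2, day 38 replicate 1, day 38 replicate 2 or day 45 replicate 2, with adjusted p from 0.0547 to 0.417. It was also lost with library sizes alone (adjusted p = 0.113) and with only the 4 libraries compared (adjusted p = 0.182).

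**Figure D3:**
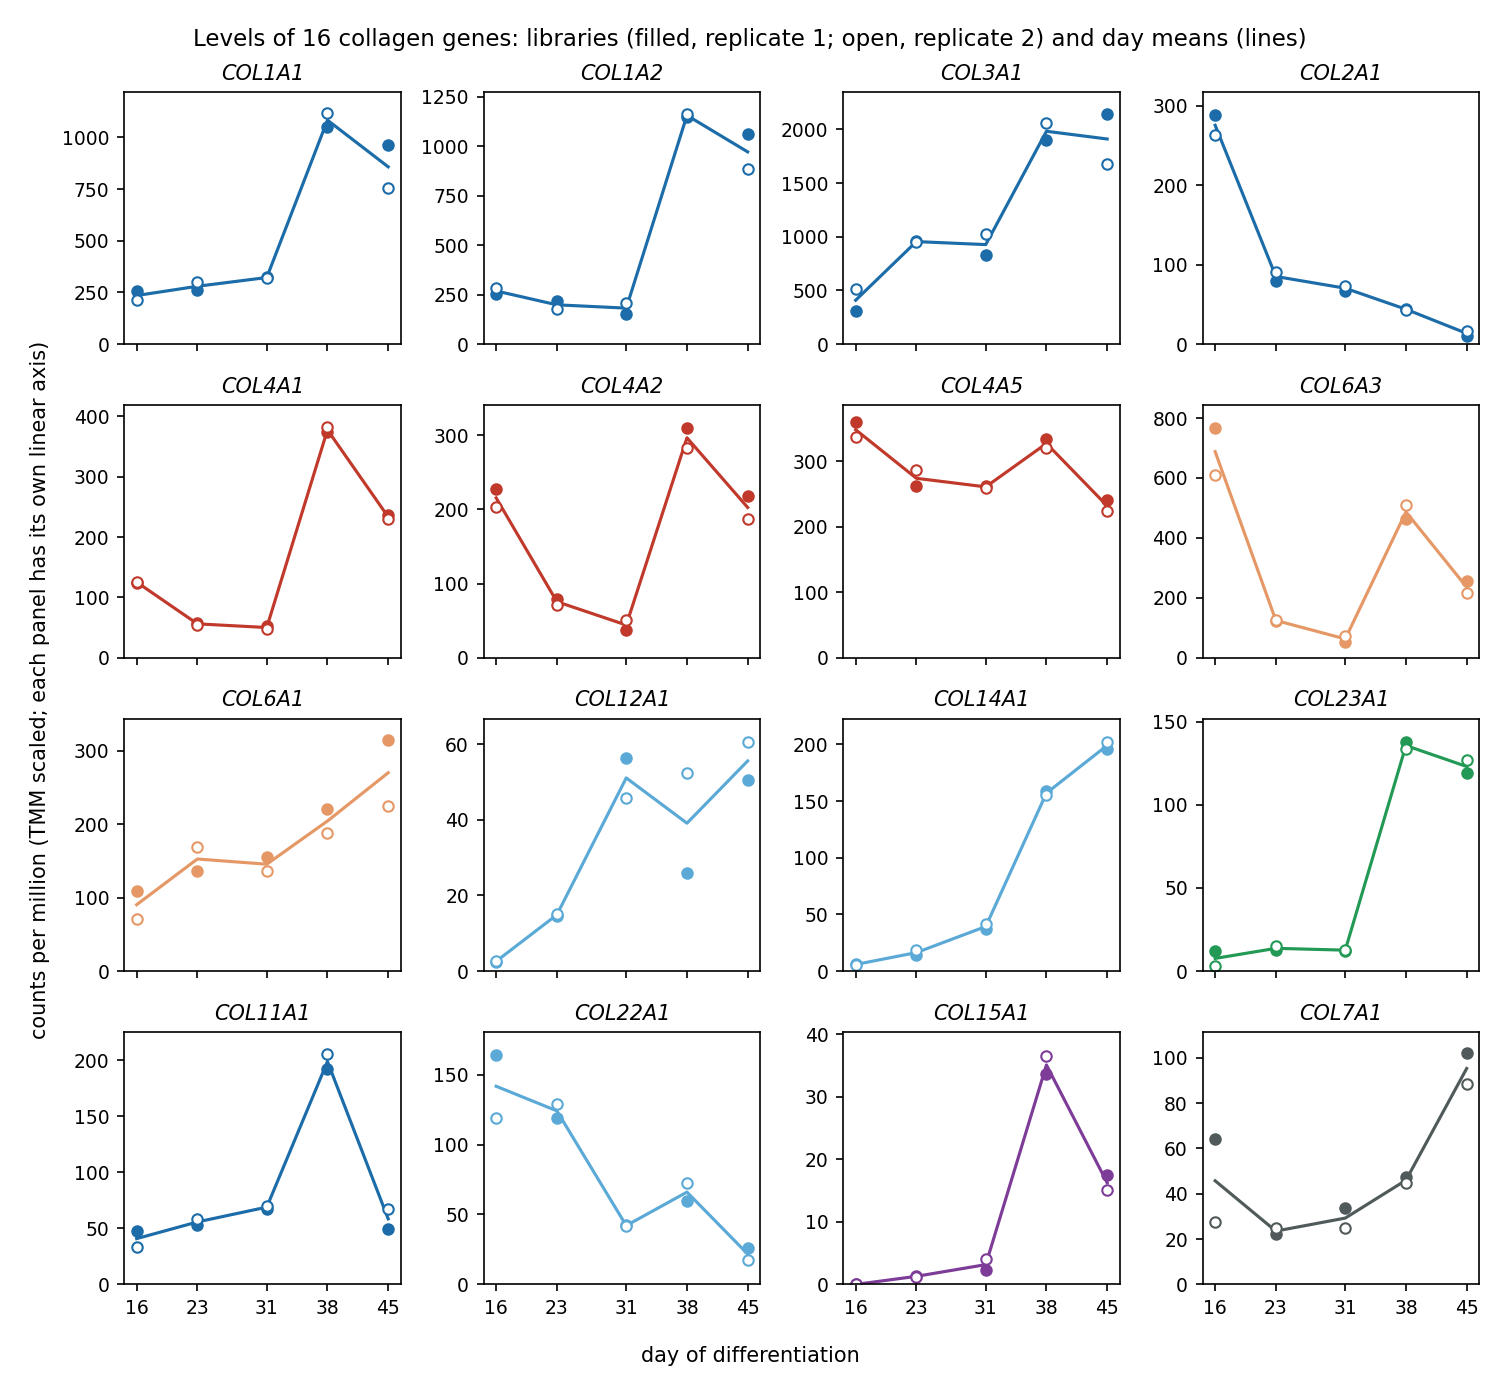
Each panel shows 1 collagen gene over the 5 days in CPM, with replicate 1 as a filled and replicate 2 as an open point and the mean of the day as a line, on a linear axis from 0 that differs between panels. *COL2A1* declines throughout, *COL14A1* climbs, *COL6A3*, *COL4A1* and *COL4A2* dip at days 23 and 31, and *COL11A1* has a single peak of 192 and 206 CPM on day 38.

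Collagen V lies in the core of collagen I fibrils, and its chains differed in time course. *COL5A1* (chr9:134641803-134844843) was at 28.1 and 45.7 CPM on day 16, 42.7 and 71.4 on day 23, 103 and 97.6 on day 31, 264 and 285 on day 38 and 240 and 202 on day 45. *COL5A2* (chr2:189031898-189225312), which lies 19151 bases from *COL3A1*, was at 98.1 and 101 CPM on day 16, 160 and 191 on day 23, 305 and 312 on day 31, 267 and 319 on day 38 and 232 and 138 on day 45. *COL5A2* had its highest mean on day 31 and was lower again on day 45, and *COL5A1* had its highest mean on day 38. From day 31 to day 38 *COL5A1* had a log2 fold change of 1.45 (standard error 0.19, adjusted p = 2.85e-07) and *COL5A2* one of −0.07 (standard error 0.16, adjusted p = 0.836). *COL5A3*, the third chain, was at 13.1 CPM in day 45 replicate 1 and at 1.20 in replicate 2, and at 0 to 1.97 CPM in the other 8 libraries. It was called in the test of any change over the 5 days (adjusted p = 0.00585), though not without day 45 replicate 1 (adjusted p = 0.335), and in none of the 5 comparisons.

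Several calls of collagen V depended on single libraries. *COL5A1* had log2 fold changes of 0.63 to day 23 (adjusted p = 0.0318) and 0.81 to day 31 (adjusted p = 0.011). The call to day 23 was lost without day 16 replicate 1, day 23 replicate 2, or either day 31 library (adjusted p from 0.0562 to 0.669), when genes had to reach 5 CPM in a library (adjusted p = 0.0524) and with only the 4 libraries compared (adjusted p = 0.176). The call to day 31 was lost without day 23 replicate 1 or either day 31 library (adjusted p from 0.0937 to 0.396) and with only the 4 libraries compared (adjusted p = 0.0619). *COL5A2* rose by 0.82 to day 23 (adjusted p = 0.000733) and by 0.81 to day 31 (adjusted p = 0.0024), and fell by 0.67 to day 45 (adjusted p = 0.00476). The later of these rises was lost without day 23 replicate 1 or either day 31 library (adjusted p from 0.0596 to 0.123), and the fall without day 38 replicate 2 (adjusted p = 0.119) or day 45 replicate 2 (adjusted p = 0.268).

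The remaining fibrillar genes were low. *COL27A1* was at 29.8 and 17.7 CPM on day 16, 29.5 and 31.4 on day 23, 52.5 and 73.9 on day 31, 55.4 and 54.9 on day 38 and 57.3 and 43.7 on day 45, and rose from day 23 to day 31 by 1.05 on the log2 scale (adjusted p = 0.00961). *COL24A1* was at 7.23 and 8.13, 18.5 and 29.3, 17.6 and 13.4, 3.02 and 7.57, and 5.37 and 6.66 CPM. It was highest during the cAMP weeks, with log2 fold changes of 1.64 to day 23 (adjusted p = 0.0113) and −1.55 from day 31 to day 38 (adjusted p = 0.0141). These 3 calls depended on single libraries. That of *COL27A1* to day 31 was lost without day 23 replicate 1, day 23 replicate 2 or day 31 replicate 2 (adjusted p from 0.0869 to 0.235). Those of *COL24A1* were lost without day 16 replicate 1 or day 23 replicate 2 (adjusted p = 0.0641 and 0.187), and without day 31 replicate 1 or day 38 replicate 1 (adjusted p = 0.129 and 0.319). *COL27A1* was also called from day 16 to day 45, at 1.09 on the log2 scale (adjusted p = 0.000873), and that call was kept when each library was left out. *COL11A2* did not exceed 1.65 CPM in any library. Of its 50-base stretches, 52.8% are repeated on alternate contigs of the genome, so its counts are uncertain.

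Collagen IV forms trimers of α1, α1 and α2 chains in most basement membranes, and of α3, α4 and α5 or α5, α5 and α6 chains in specialised ones. Its 6 genes lie in 3 pairs that start close to each other on opposite strands, and their promoter regions meet. In GENCODE 44 the starts of *COL4A3* and *COL4A4* are 171 bases apart and those of *COL4A5* and *COL4A6* 341, while *COL4A1* and *COL4A2* start 1345 bases apart inside overlapping gene models. The RefSeq promoter tables held windows for 32 of the 44 collagens. Each collagen IV pair has windows that overlap, and the overlaps are shown here on the plus strand of GRCh38.p14, with the letters CCAAT or their reverse complement ATTGG in capitals.
*COL4A1* and *COL4A2*, chr13:110307108-110307333: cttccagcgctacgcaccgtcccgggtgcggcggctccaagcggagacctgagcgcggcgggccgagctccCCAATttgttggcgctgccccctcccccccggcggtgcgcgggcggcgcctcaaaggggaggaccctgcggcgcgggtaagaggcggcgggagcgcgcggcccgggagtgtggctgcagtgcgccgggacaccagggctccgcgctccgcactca
*COL4A6* and *COL4A5*, chrX:108439588-108439708: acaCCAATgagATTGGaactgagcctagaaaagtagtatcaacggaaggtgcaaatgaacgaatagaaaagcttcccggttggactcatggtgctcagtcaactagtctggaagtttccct
*COL4A4* and *COL4A3*, chr2:227164374-227164455: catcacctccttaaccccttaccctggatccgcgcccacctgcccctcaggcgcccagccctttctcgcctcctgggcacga

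The overlap of *COL4A1* and *COL4A2* held CCAAT once in 226 bases, that of *COL4A6* and *COL4A5* held it 2 times in 121 bases, on opposite strands, and that of *COL4A4* and *COL4A3* did not hold it in 82 bases. *COL4A6* has a further window, chrX:108438373-108438672, which lies apart from that of *COL4A5* and held CCAAT 0 times. In windows from 250 bases before to 50 after each gene's start, CCAAT on either strand was present for 37.5% of the 32 collagens and for 39.7% of 27305 genes. The GC box GGGCGG was present for 65.6 and 48.3%, and TATAAA for 21.9 and 14.0%. These are matches of letters only, and binding was not measured.

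*COL4A1* and *COL4A2*, the pair of the common basement membrane trimer, dipped and rose together. *COL4A1* (chr13:110148963-110307157, minus strand) was at 125 and 126 CPM on day 16, 57.7 and 54.2 on day 23, 51.7 and 48.0 on day 31, 374 and 382 on day 38 and 237 and 230 on day 45. *COL4A2* (chr13:110305812-110513209, plus strand) was at 227 and 204, 79.3 and 71.7, 37.7 and 50.3, 311 and 283, and 218 and 188 CPM. Both were lowest in the 4 cAMP libraries and highest in the day 38 pair. From day 31 to day 38 *COL4A1* rose by 2.92 on the log2 scale (standard error 0.15, adjusted p = 2.96e-17) and *COL4A2* by 2.76 (standard error 0.16, adjusted p = 1.68e-15). To day 23 they had fallen by 1.16 (adjusted p = 1.6e-07) and 1.51 (adjusted p = 4.02e-09), and to day 45 they fell by 0.70 (adjusted p = 0.000301) and 0.55 (adjusted p = 0.00948). *COL4A2* and *COL6A3* were the only 2 collagens called in each of the 4 successive steps. For *COL4A2*, the fall of 0.78 to day 31 (adjusted p = 0.0021) was not called without day 23 replicate 1 (adjusted p = 0.0634) or day 31 replicate 1 (adjusted p = 0.19), and that to day 45 without day 38 replicate 1 (adjusted p = 0.138) or day 45 replicate 2 (adjusted p = 0.147).

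In the X-linked pair, *COL4A5* changed in the same direction as *COL4A1* and *COL4A2* at each successive step but by less. The difference between the pairs was not tested. *COL4A5* (chrX:108439838-108697545) was at 360 and 336 CPM on day 16, 261 and 286 on day 23, 262 and 259 on day 31, 334 and 320 on day 38 and 240 and 223 on day 45, a narrow range. *COL4A6* (chrX:108155607-108439497) was at 65.4 and 46.7, 28.5 and 28.8, 32.7 and 21.9, 25.6 and 26.5, and 19.6 and 12.8 CPM. From day 31 to day 38, when *COL4A1* and *COL4A2* rose, *COL4A5* had a log2 fold change of 0.33 (standard error 0.12, adjusted p = 0.0714) and *COL4A6* one of −0.07 (standard error 0.27, adjusted p = 0.923). *COL4A5* fell by 0.50 to day 45 (adjusted p = 0.00544), which was not called without day 38 replicate 1 (adjusted p = 0.0752) or day 45 replicate 2 (adjusted p = 0.0712). *COL4A6* fell by 1.80 from day 16 to day 45 (adjusted p = 5.19e-06). Its step of −0.97 to day 23 (adjusted p = 0.0151) was lost without day 16 replicate 1, day 23 replicate 1 or day 23 replicate 2 (adjusted p from 0.0984 to 0.199).

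*COL4A3* and *COL4A4*, the chains of the kidney, lung and inner ear membranes, were low. *COL4A4* was at 14.1 and 6.40 CPM on day 16, 4.99 and 4.34 on day 23, 11.2 and 7.79 on day 31, 13.7 and 7.22 on day 38 and 20.5 and 24.0 on day 45. *COL4A3*, 6.82% of whose exon bases are shared with another gene model, was at 5.07 and 8.13, 3.99 and 1.83, 1.64 and 4.42, 7.88 and 6.52, and 2.61 and 6.22 CPM. Neither was called in any of the 5 comparisons. *COL4A4*, with both day 45 libraries above the other 8, was called in the test of any change over the 5 days (adjusted p = 0.00266), and *COL4A3* was not (adjusted p = 0.335).

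Per kilobase, collagen IV was led by *COL4A5* through day 31. Its level was 29.3 CPM per kb on day 16 and 21.95 on day 31, against 8.54 and 3.40 for *COL4A1*. At day 38 they stood at 27.5 and 25.8. The ratio of *COL4A1* to *COL4A5* per length was 0.280 and 0.303 on day 16, 0.160 and 0.150 on day 31, 0.906 and 0.966 on day 38 and 0.798 and 0.836 on day 45. With lengths of the longest transcript it was 1.12 and 1.19 on day 38, so which of the 2 genes was higher there depends on the length used. The ratio of *COL4A1* to *COL4A2* lay between 0.719 and 1.80 in all libraries, and that of *COL4A5* to *COL4A6* between 4.30 and 13.7.

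Collagen VI is built of an α1, an α2 and an α3 chain, the α3 chain being the long one. *COL6A3* (chr2:237324003-237414328) was at 767 and 610 CPM on day 16, 124 and 124 on day 23, 51.3 and 73.4 on day 31, 462 and 511 on day 38 and 256 and 215 on day 45. It was the collagen with the most counts on day 16, and the pairs of all 5 days were separate from one another. The steps were log2 fold changes of −2.47 (standard error 0.15, adjusted p = 4.22e-14), −0.995 (standard error 0.15, adjusted p = 5.13e-05), 2.97 (standard error 0.16, adjusted p = 1.83e-16) and −1.05 (standard error 0.15, adjusted p = 2.08e-06), and all 4 were called again when each library was left out.

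The partner chains had no dip of this size. *COL6A1* (chr21:45981770-46005050) was at 109 and 71.2 CPM on day 16, 136 and 169 on day 23, 155 and 136 on day 31, 220 and 189 on day 38 and 315 and 225 on day 45. *COL6A2* (chr21:46098112-46132848), 93061 bases downstream, was at 97.5 and 83.6, 81.6 and 84.6, 68.5 and 78.6, 150 and 136, and 198 and 139 CPM. Both had their highest mean on day 45, and both day 31 libraries of *COL6A2* lay below its day 16 libraries, with no call up to day 31. *COL6A2* rose by 0.96 from day 31 to day 38 (standard error 0.17, adjusted p = 5.34e-05). *COL6A1* rose by 0.76 to day 23 (adjusted p = 0.0027) and by 1.58 from day 16 to day 45 (adjusted p = 7.23e-09). Its rise to day 23 was lost without day 16 replicate 2 (adjusted p = 0.096) or day 23 replicate 2 (adjusted p = 0.0987). Its change from day 31 to day 38, 0.49 on the log2 scale (adjusted p = 0.0473), was at the threshold and was lost with DESeq2, library sizes alone, upper-quartile factors and both stricter filters (adjusted p from 0.0642 to 0.329) and without any one library of days 23, 31 or 38 (adjusted p from 0.0573 to 0.344).

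The per-length ratio of *COL6A3* to *COL6A1* was 1.80 and 2.20 on day 16, 0.234 and 0.190 on day 23, 0.0851 and 0.139 on day 31, 0.541 and 0.698 on day 38 and 0.209 and 0.245 on day 45. On this scale the α3 transcript was above α1 on day 16 and below it in all later libraries. With lengths taken from the longest transcript, the mean ratio was 3.11 on day 16 and 0.174 on day 31, and the day 38 libraries fell on both sides of 1, at 0.839 and 1.08. The ratio of *COL6A1* to *COL6A2* stayed between 0.820 and 2.18. *COL6A6* was at 5.83 and 18.0 CPM on day 16, 9.97 and 6.29 on day 23, 9.62 and 5.58 on day 31, 4.10 and 6.87 on day 38 and 10.3 and 8.74 on day 45, with no call. *COL6A5* had 0.887 and 0.123 CPM on day 16, 0.233 in day 38 replicate 2 and 0 in the other 7 libraries.

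**Figure D4:**
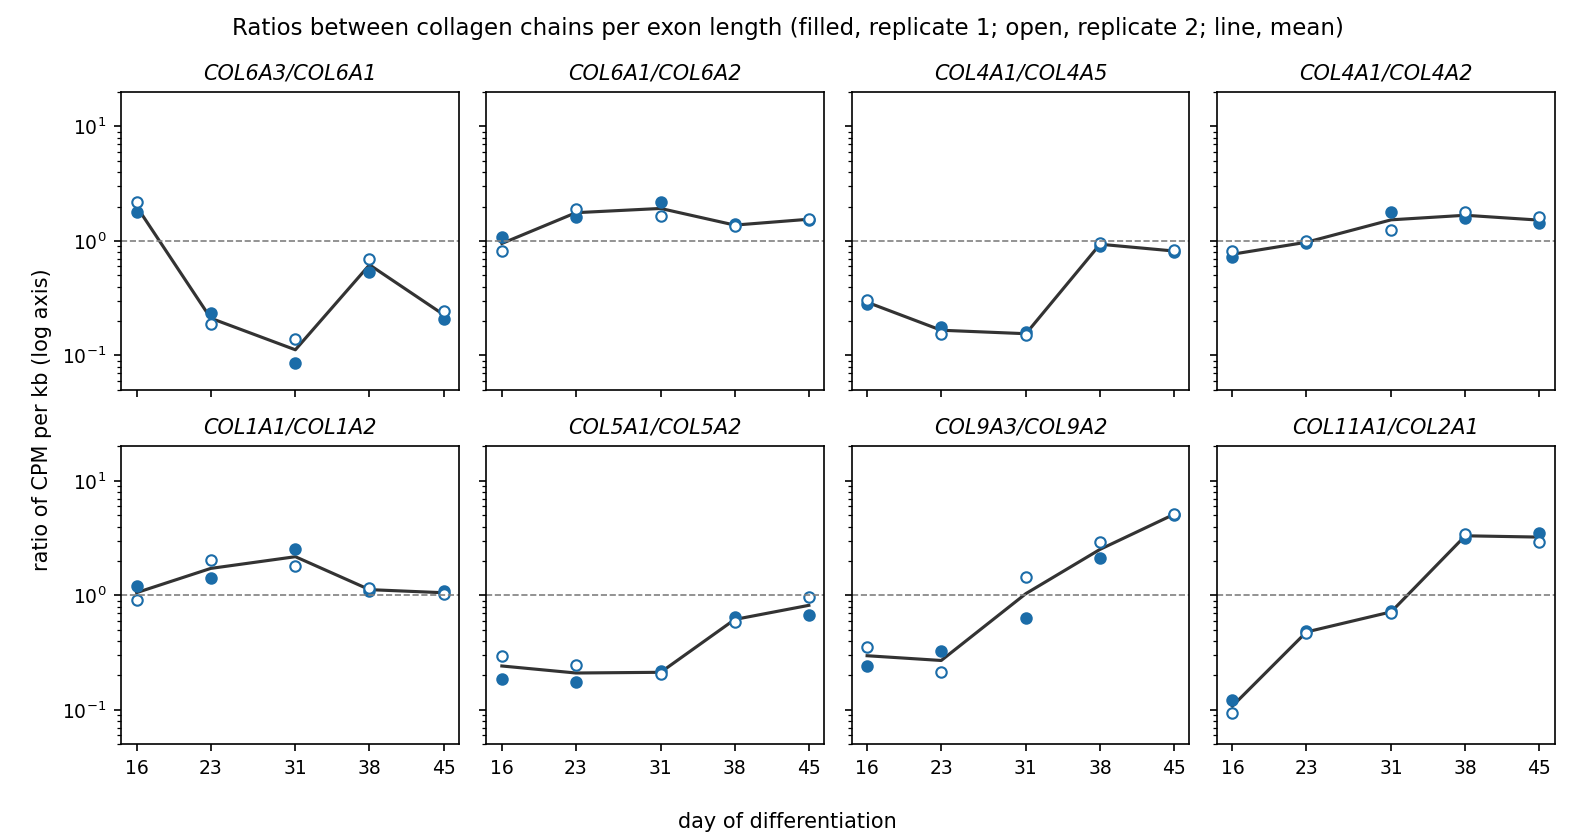
Each panel shows the ratio of a pair of collagen genes in CPM per kb of exon on a shared log axis, with replicate 1 filled and replicate 2 open, a line for the mean of the day and a dashed line at 1. The ratio of *COL6A3* to *COL6A1* falls from 1.80 and 2.20 on day 16 to 0.0851 and 0.139 on day 31, and that of *COL4A1* to *COL4A5* reaches 0.906 and 0.966 on day 38 (1.12 and 1.19 with longest-transcript lengths, which are not plotted).

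Ratios within the other trimers also moved. Per length, *COL1A1* to *COL1A2* was 1.21 and 0.908 on day 16, 2.54 and 1.82 on day 31, 1.10 and 1.15 on day 38 and 1.09 and 1.03 on day 45, so that the chains were nearest to each other before and after the cAMP weeks. *COL5A1* to *COL5A2* was 0.221 and 0.206 on day 31 and 0.680 and 0.960 on day 45. *COL11A1* to *COL2A1* was 0.122 and 0.0939 on day 16 and 3.17 and 3.47 on day 38. *COL9A3* to *COL9A2* was 0.243 and 0.352 on day 16 and 5.05 and 5.18 on day 45.

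Of the 10 FACIT genes, 4 rose from day 31 to day 38 and 0 fell, against 8.8 and 6.23% of all genes tested. The 4 became 1, a share near that background, without day 31 replicate 1 or day 38 replicate 2, and 2 without day 31 replicate 2 or day 38 replicate 1. *COL14A1*, whose chain binds fibril surfaces, was the one called each time. It was at 6.21 and 5.29 CPM on day 16, 14.1 and 18.4 on day 23, 36.7 and 41.8 on day 31, 159 and 155 on day 38 and 196 and 202 on day 45. Each day's pair lay above that of the day before. The log2 fold change between day 16 and day 45 was 5.11 (standard error 0.21, adjusted p = 2.17e-19), made of called steps of 1.495, 1.27 and 2.001 up to day 38 (adjusted p = 6.79e-06, 3.17e-05 and 7.44e-11).

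*COL12A1* (chr6:75084326-75206267), the related chain of collagen XII, rose earlier. It was at 2.41 and 2.71 CPM on day 16, 14.6 and 15.1 on day 23, 56.3 and 45.8 on day 31, 25.9 and 52.3 on day 38 and 50.5 and 60.6 on day 45. The called steps were those up to day 31, with log2 fold changes of 2.53 (standard error 0.35, adjusted p = 2.04e-06) and 1.78 (standard error 0.28, adjusted p = 0.000118). From day 31 to day 38 it had a value of −0.39 (adjusted p = 0.397), with overlapping libraries.

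*COL22A1*, known from tissue junctions, and *COL19A1*, known from embryonic muscle, declined. *COL22A1* was at 164 and 119 CPM on day 16, 119 and 129 on day 23, 42.4 and 41.8 on day 31, 59.4 and 72.6 on day 38 and 25.8 and 17.7 on day 45. *COL19A1* (chr6:69866556-70212468) was at 52.1 and 41.1, 9.42 and 10.9, 9.01 and 16.6, 6.59 and 8.15, and 7.84 and 3.60 CPM. *COL22A1* fell by 1.56 to day 31 (adjusted p = 1.83e-06) and by 1.61 from day 38 to day 45 (adjusted p = 3.96e-07), and *COL19A1* by 2.20 to day 23 (adjusted p = 9.42e-05). The rise of *COL22A1* between these falls, 0.65 to day 38 (adjusted p = 0.0166), was lost without day 31 replicate 1, day 31 replicate 2 or day 38 replicate 2 (adjusted p from 0.105 to 0.247) and with library sizes alone (adjusted p = 0.134).

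Collagen IX decorates collagen II fibrils and holds 1 chain from each of its 3 genes. *COL9A3* (chr20:62816244-62841159) was at 8.87 and 9.11 CPM on day 16, 5.54 and 3.66 on day 23, 8.49 and 16.8 on day 31, 29.7 and 29.8 on day 38 and 38.8 and 36.4 on day 45. *COL9A2* (chr1:40300489-40317813) was at 31.8 and 22.5, 14.9 and 14.7, 11.7 and 10.1, 12.2 and 8.85, and 6.68 and 6.11 CPM. *COL9A1* was between 0.572 and 3.17 CPM in the 10 libraries. From day 16 to day 45 *COL9A3* rose by 2.06 (standard error 0.35, adjusted p = 2.01e-05) and *COL9A2* fell by 2.09 (standard error 0.39, adjusted p = 6.83e-05). Of the single steps of *COL9A3*, that to day 31 (1.45, adjusted p = 0.0231) was lost without either day 23 library or day 31 replicate 2 (adjusted p from 0.0528 to 0.368) and with only the 4 libraries compared (adjusted p = 0.216). That to day 38 (1.24, adjusted p = 0.00935) was lost without day 31 replicate 1 or either day 38 library (adjusted p from 0.0722 to 0.203).

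*COL20A1* was at under 2 CPM in all libraries up to day 38 and at 15.8 and 5.13 CPM on day 45, against 0.432 and 0.116 on day 38, 1.23 and 1.86 on day 31, 1.66 and 1.26 on day 23 and 0.887 and 0.123 on day 16. Its call from day 38 to day 45 (adjusted p = 0.00229) was lost without day 38 replicate 2 (adjusted p = 0.0782) or day 45 replicate 1 (adjusted p = 0.152), and that from day 16 (adjusted p = 0.00313) without day 16 replicate 2 (adjusted p = 0.0501) or day 45 replicate 1 (adjusted p = 0.17). *COL16A1* ranged from 9.86 to 27.8 CPM with no call, and *COL21A1* from 1.28 to 8.96, with a call only to day 38 (adjusted p = 0.0134). The call of *COL21A1* was lost without any one of the 4 libraries compared (adjusted p from 0.0556 to 0.151), and it was not called in the test of any change (adjusted p = 0.0729).

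Transmembrane collagens are anchored in the plasma membrane and can be shed. *COL23A1* (chr5:178237476-178590393) was at 12.3 and 2.83 CPM on day 16, 12.4 and 14.9 on day 23, 12.2 and 12.9 on day 31, 138 and 134 on day 38 and 119 and 127 on day 45. It switched between a low level in the 6 earlier libraries and a high level in the 4 later ones, with a log2 fold change of 3.43 between day 31 and day 38 (standard error 0.29, adjusted p = 4.34e-11) and −0.14 from there to day 45 (adjusted p = 0.819). Per length it moved from rank 20 among the 44 collagens on day 31 to rank 6 on day 38.

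*COL25A1* (chr4:108808725-109302752), a neuronal and muscle chain, followed at a lower level, at 10.1 and 9.85 CPM on day 16, 8.98 and 10.6 on day 23, 11.7 and 9.89 on day 31, 44.2 and 32.2 on day 38 and 25.7 and 21.95 on day 45. It rose by 1.82 to day 38 (standard error 0.33, adjusted p = 8.48e-05). *COL17A1* (chr10:104031286-104085880), the hemidesmosome collagen of basal epithelial cells, was at 5.32 and 4.56, 4.10 and 6.29, 3.89 and 8.14, 18.3 and 9.78, and 16.4 and 17.3 CPM. It was called from day 16 to day 45 only (1.77, adjusted p = 0.00676), a call lost without day 16 replicate 2 (adjusted p = 0.0505). *COL13A1* ranged from 2.33 to 8.87 CPM with no call.

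The multiplexins are basement membrane collagens that carry sugar chains, and their C-terminal ends can be released as endostatin and its relative. *COL15A1* (chr9:98943179-99070792) was at 0 CPM in both day 16 libraries, 1.33 and 1.26 on day 23, 2.25 and 4.07 on day 31, 33.6 and 36.6 on day 38 and 17.4 and 15.1 on day 45. Against a floor of 3 counts per library on day 16, it was at least 3.45-fold higher on day 23 and at least 43.3-fold higher on day 45. Between days 31 and 38, where both days had counts, it rose by 3.47 on the log2 scale (standard error 0.46, adjusted p = 7.68e-07). The call from day 16 to day 23 was lost in a fit of only the 4 libraries compared (adjusted p = 0.144).

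*COL18A1* (chr21:45405165-45513720) was at 104 and 75.7 CPM on day 16, 81.4 and 65.5 on day 23, 55.9 and 55.1 on day 31, 130 and 134 on day 38 and 93.9 and 66.0 on day 45. It was highest in the day 38 pair, with log2 fold changes of 1.25 to day 38 (standard error 0.19, adjusted p = 4.37e-06) and −0.73 to day 45 (standard error 0.18, adjusted p = 0.00606). The fall was not called without day 38 replicate 2 (adjusted p = 0.066) or day 45 replicate 2 (adjusted p = 0.185). *SLC19A1* shares 18.5% of the exon bases of *COL18A1*, and the strand setting of the counting is not stated, so its reads are uncertain.

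*COL7A1* (chr3:48564073-48595329), the anchoring fibril chain that ties epithelium to stroma, was 1 of the 2 collagens that rose at the last step. It was at 64.1 and 27.3 CPM on day 16, 22 and 25.0 on day 23, 33.8 and 24.8 on day 31, 47.2 and 44.8 on day 38 and 102 and 88.6 on day 45. Both day 45 libraries were above all others. The rise from day 38 to day 45 was 1.05 on the log2 scale (standard error 0.26, adjusted p = 0.00475). This call was lost without day 38 replicate 2 (adjusted p = 0.0643) or day 45 replicate 1 (adjusted p = 0.0694). Its earlier fall to day 23 (−0.96, adjusted p = 0.014) was lost without day 16 replicate 1 or either day 23 library (adjusted p from 0.0636 to 0.737) and with only the 4 libraries compared (adjusted p = 0.0666). Its change from day 16 to day 45 (1.06, adjusted p = 0.00186) was lost without day 16 replicate 2 (adjusted p = 0.0984).

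Among the short-chain network collagens, *COL8A1* (chr3:99638475-99799226), known from vessel walls, was at 17.5 and 15.9 CPM on day 16, 25.6 and 26.2 on day 23, 23.02 and 46.1 on day 31, 65.1 and 69.0 on day 38 and 37.9 and 39.1 on day 45. It rose by 0.96 to day 38 (adjusted p = 0.00789), a call lost without day 31 replicate 1 (adjusted p = 0.255) or day 38 replicate 2 (adjusted p = 0.0826). It fell by 0.80 to day 45 (adjusted p = 0.0367), a call lost with DESeq2, library sizes alone and upper-quartile factors (adjusted p from 0.0579 to 0.067) and without any one of the 4 libraries compared (adjusted p from 0.141 to 0.236). *COL8A2* ranged from 6.34 to 15.1 CPM and *COL10A1* from 3.06 to 15.8, with no call. Of the remaining genes, *COL26A1* was at 12.7 and 5.17 CPM on day 16, 4.65 and 3.89 on day 23, 3.58 and 5.47 on day 31, 11.9 and 14.8 on day 38 and 5.66 and 1.42 on day 45. Its fall to day 45 (adjusted p = 0.0344) was lost without either day 38 library or day 45 replicate 2 (adjusted p from 0.107 to 0.325). *COL28A1* ranged from 1.84 to 8.09 CPM with no call.

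The genes of the collagen pathway were read against the same backgrounds, the shares of all tested genes called higher and lower. These were 5.6 and 5.33% from day 16 to day 23, and 1.58 and 0.666% from day 23 to day 31. They were 8.8 and 6.23% from day 31 to day 38, and 4.85 and 6.35% from day 38 to day 45. From day 16 to day 45 they were 12.9 and 11.7%. Of 15 hydroxylation and glycosylation genes, 8 rose from day 31 to day 38 (*P4HA1*, *PLOD1*, *PLOD2*, *P3H4*, *PPIB*, *P4HB*, *P3H1* and *CRTAP*) and 0 fell. *P4HA1*, a catalytic subunit of prolyl 4-hydroxylase, was at 264 and 271 CPM on day 16, 72.8 and 61.7 on day 23, 126 and 115 on day 31, 600 and 598 on day 38 and 390 and 364 on day 45. It had the largest log2 fold change of the list to day 38, 2.31 (adjusted p = 1.31e-15), and *CRTAP*, a partner of prolyl 3-hydroxylase, the smallest of those called, 0.62 (adjusted p = 0.0103). The 8 became 5 without day 31 replicate 1 or day 38 replicate 1, and *CRTAP* was not called without either of these (adjusted p = 0.12 and 0.164) or with library sizes alone (adjusted p = 0.117). *P3H1*, a prolyl 3-hydroxylase, was lost with DESeq2 (adjusted p = 0.0671), library sizes alone (adjusted p = 0.197) and upper-quartile factors (adjusted p = 0.0639), and without day 31 replicate 1 or either day 38 library (adjusted p from 0.112 to 0.485). The median log2 fold change at this step was 0.63 over this list, 0.72 over the folding and export genes, 1.01 over the cleavage and crosslinking genes, 0.21 over the receptors and 0.59 over the proteases, against 0 over all genes tested. From day 16 to day 23 the list had 0 genes higher and 3 lower, from *P4HA1* (−1.99, adjusted p = 2.53e-13) to *CRTAP* (−0.98, adjusted p = 0.000127), and from day 23 to day 31 *P4HA1* alone rose (0.84, adjusted p = 7.58e-05).

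From day 38 to day 45 the list had 0 genes higher and 4 lower, against 4.85 and 6.35% of all genes tested. *PLOD2*, a lysyl hydroxylase that acts on telopeptides, was at 824 and 842 CPM on day 38 and 393 and 419 on day 45, a log2 fold change of −1.04 (adjusted p = 2.5e-07), and *P4HA1* fell by 0.67 (adjusted p = 0.00023). The other 2 of the 4, *P3H1* and *P4HA2*, were not called without day 38 replicate 2 (adjusted p = 0.113 and 0.0725) or day 45 replicate 2 (adjusted p = 0.0949 and 0.0558). From day 16 to day 45 the list had 4 genes higher and 0 lower, against 12.9 and 11.7% of all genes tested.

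Of 9 folding and export genes, 5 rose and 1 fell from day 31 to day 38. *FKBP14*, a prolyl isomerase, was at 35.9 and 34.7 CPM on day 31 and 91.4 and 91.8 on day 38, a log2 fold change of 1.38 (adjusted p = 3.49e-05). *MIA3*, which loads procollagen into vesicles, had −0.40 (adjusted p = 0.0441), a call lost without any one library of days 23, 31 or 38 (adjusted p from 0.0596 to 0.22). *SERPINH1*, which encodes the collagen chaperone HSP47, had risen earlier, from 175 and 178 CPM on day 16 to 365 and 348 on day 23 (log2 fold change 1.01, adjusted p = 5.88e-07), and was at 298 and 349 on day 31 and 374 and 333 on day 38. The list had 2 genes higher and 1 lower from day 16 to day 23, against 5.6 and 5.33% of all genes tested. The lower one, *FKBP10* (−0.63), was lost without day 16 replicate 1 (−0.47) or day 23 replicate 2 (−0.49). The list had 0 called from day 23 to day 31. Between days 16 and 45 it had 5 higher and 0 lower, against 12.9 and 11.7%. *SERPINH1* was the only gene of the list called from day 38 to day 45, at −0.40 (adjusted p = 0.0349). That call was lost without either day 23 library, either day 38 library or day 45 replicate 2 (adjusted p from 0.0541 to 0.334), and with library sizes alone (adjusted p = 0.0738) or upper-quartile factors (adjusted p = 0.0813).

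Of 15 genes for procollagen cleavage and crosslinking, 5 rose and 0 fell from day 31 to day 38. *LOXL2* was at 0 and 5.58 CPM on day 31 and 58.3 and 56.1 on day 38 (4.39 on the log2 scale, adjusted p = 7.92e-07). *LOX*, the founding lysyl oxidase, was at 20.8 and 14.4 CPM on day 31 and 109 and 158 on day 38 (2.92, adjusted p = 1.33e-10). *SPARC*, a collagen-binding protein, had the smallest called change, 1.01 (adjusted p = 1.71e-08). From day 38 to day 45 only *PXDN*, the peroxidase that crosslinks collagen IV, and *SPARC* were called, at −0.91 (adjusted p = 1.41e-06) and −0.54 (adjusted p = 0.000747). From day 16 to day 23 the list had 3 genes higher, among them *TLL1* from 0 and 0.123 to 3.55 and 4.57 CPM (adjusted p = 0.0112, and 0.0891 without day 16 replicate 1), and *SPARC* lower (−0.65, adjusted p = 8.87e-05). From day 23 to day 31 it had 2 higher and 1 lower, each lost when single libraries were left out. From day 16 to day 45 it had 6 higher and 5 lower, against 12.9 and 11.7% of all genes tested. Of the 5, *LOXL3* and *ADAMTS3* were both lost without day 16 replicate 2 (log2 fold changes −1.03 and −0.44) or day 45 replicate 2 (−0.70 and −0.49).

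Of the 11 receptor genes, 10 were tested, and 4 rose and 1 fell from day 31 to day 38. Of the 4, *ITGB1*, the most abundant of the list, was lost with library sizes alone (log2 fold change 0.2, adjusted p = 0.32 by edgeR). Its call was also lost without day 31 replicate 2 (0.29), day 38 replicate 1 (0.39) or day 38 replicate 2 (0.45). *ADGRG1*, an adhesion receptor that binds collagen III, was at 12.9 and 9.77 CPM on day 31 and 62.8 and 47.6 on day 38 (2.28, adjusted p = 4.35e-07). *ITGA2*, an integrin subunit for collagen, had −0.62 (adjusted p = 0.042), a call lost without any one library of days 23, 31 or 38 (adjusted p from 0.0512 to 0.238). The list had 2 genes higher and 1 lower from day 16 to day 23, against 5.6 and 5.33% of all genes tested. Of the 2, *ADGRG1* was lost without day 16 replicate 1 (log2 fold change 0.83), day 23 replicate 2 (0.92) or day 38 replicate 1 (1.09). It was also lost with only the 4 libraries compared (adjusted p = 0.287). From day 23 to day 31 the list had 0 called. Between days 16 and 45 it had 3 higher and 1 lower, against 12.9 and 11.7%. The lower one, *MRC2*, was lost without day 16 replicate 1 (−0.20) or either day 45 library (−0.44 and −0.48), and *DDR2* without day 16 replicate 1 (0.79). From day 38 to day 45 *DDR2*, a receptor for fibrillar collagen, had 1.49 (adjusted p = 0.0036) and *MRC2*, which takes up collagen, −0.52 (adjusted p = 0.0234). The first was lost without day 38 replicate 1 (adjusted p = 0.134) and the other without any one of the 4 libraries compared (adjusted p from 0.0828 to 0.18) or with library sizes alone (adjusted p = 0.0532).

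Of the 8 collagen-degrading proteases, 7 were tested. *MMP1*, interstitial collagenase, was at 1.14 and 0 CPM on day 16, 0 in both day 23 libraries, 5.42 and 4.30 CPM on day 31, 6.48 and 5.24 on day 38 and 31.4 and 39.6 on day 45. It was the only protease called from day 16 to day 23, as lower (adjusted p = 0.0365), though day 16 replicate 2 and the day 23 libraries were alike at 0. That call was lost without day 16 replicate 1, either day 23 library, either day 31 library or day 45 replicate 2 (adjusted p from 0.051 to 1). Its level on day 31 was at least 14.4-fold higher than on day 23, and rose by 2.596 from day 38 to day 45 (adjusted p = 0.00105). At that last step 11 collagens were called lower and 2 higher, against 6.35 and 4.85% of all genes tested. *MMP2*, which acts on collagen IV, had 0.59 to day 38 (adjusted p = 0.0302), lost without either day 31 library or day 38 replicate 1 (adjusted p from 0.111 to 0.383), with library sizes alone (adjusted p = 0.195) and with upper-quartile factors (adjusted p = 0.0502). From day 23 to day 31 *MMP2* had fallen by 0.90 (adjusted p = 0.00455), a call lost without day 23 replicate 1 or either day 31 library (adjusted p from 0.0658 to 0.0825). *MMP1* and *FAP* were called higher from day 16 to day 45, and 0 proteases lower, against 12.9 and 11.7% of all genes tested.

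Fibrillar collagens are also made by cells other than thyrocytes, so markers of such cells were measured in the same libraries. The 9 fibroblast markers summed to 165 and 207 CPM on day 16, 416 and 419 on day 23, 611 and 702 on day 31, 453 and 406 on day 38 and 618 and 562 on day 45. *POSTN* was the most abundant of them, and *TWIST2* was at 0 in 9 of the 10 libraries. Of the fibroblast markers, *DCN*, *POSTN* and *LUM* rose and *PRRX1* fell from day 16 to day 23, when 8 collagens rose and 8 fell (backgrounds 5.6 and 5.33%), and from day 23 to day 31 *POSTN* rose and *LUM* fell (backgrounds 1.58 and 0.666%). The call of *LUM* to day 31 was lost without day 23 replicate 1 or either day 31 library (adjusted p from 0.0708 to 0.169). From day 31 to day 38, when 19 collagens rose, 1 of the 8 tested fibroblast markers rose (*PDGFRA*, 1.04, adjusted p = 0.0263) and 2 fell (*LUM*, −1.23, adjusted p = 2.8e-06, and *POSTN*, −0.83, adjusted p = 2.58e-05), against 8.8 and 6.23% of all genes tested. The other 5 were not called and had positive log2 fold changes with TMM factors, as did *PDGFRA*, with a median over the 8 of 0.24 against 0 over all genes tested, and library sizes alone would shift all of these by about −0.20. The call of *PDGFRA* was lost without any one of the 4 libraries compared (adjusted p from 0.0828 to 0.187) and with library sizes alone (adjusted p = 0.0885). From day 38 to day 45, *DCN*, *PDGFRA* and *LUM* rose and 0 fell, against 4.85 and 6.35% of all genes tested. *DCN* was not called by DESeq2 (adjusted p = 0.0741), nor *PDGFRA* without either day 38 library (log2 fold changes 1.17 and 1.33). At this step the summed collagen level went from 7682 and 7995 to 7105 and 5818 CPM. Over the whole course from day 16 to day 45, when 20 collagens were higher, 5 of the 8 markers were higher, against 12.9% of all genes tested (*DCN*, *POSTN*, *PDGFRA*, *PDGFRB* and *LUM*) and *PRRX1* lower. The call of *LUM* was lost without day 16 replicate 1 (adjusted p = 0.147) and with only the 4 libraries compared (adjusted p = 0.059). The part of fibroblasts in the collagen changes was not tested.

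The 6 cardiovascular markers summed to 53.9 and 64.0 CPM on day 16, 54.1 and 53.3 on day 23, 61.7 and 50.02 on day 31, 179 and 170 on day 38 and 195 and 200 on day 45. *MYH6* was the most abundant. In the comparison of day 38 with day 31, 3 of the 6 were called higher (*ACTA2*, *MYH6* and *CNN1*) and 0 lower, against 8.8 and 6.23% of all genes tested. In that of day 45 with day 16, 5 of the 6 were called higher and *RGS5* lower, against 12.9 and 11.7%; the 5 became 3 without day 45 replicate 1. The cardiovascular sums parted into the 6 earlier and the 4 later libraries, as the collagen sums did, and so did those of the 7 thyroid markers, at 1455 to 1851 CPM in the earlier and 6584 to 9295 in the later libraries, of which *TG* alone made up 10.7 to 212 and 4874 to 7961 CPM, and those of the airway and goblet markers. The 5 endothelial markers summed to 17.1 to 54.5 CPM over the libraries, with *KDR* the most abundant and *PECAM1* at 0 in all 6 libraries up to day 31. From day 31 to day 38 they had 2 positive and 3 negative log2 fold changes. *KDR* and *TEK* were called lower and 0 higher, against 6.23 and 8.8% of all genes tested. The call of *KDR* was lost without day 31 replicate 1 (log2 fold change −1.31). That of *TEK* was lost without day 31 replicate 2 (−1.39) or day 38 replicate 1 (−1.3). *CDH5*, which was not called, went the other way, from 0 and 1.28 CPM on day 31 to 4.43 and 5.47 on day 38. The 6 chondrocyte markers summed to 26.1 and 23.1 CPM on day 16, 59.4 and 70.0 on day 23, 129 and 136 on day 31, 142 and 121 on day 38 and 117 and 129 on day 45, with *SOX9* the most abundant. *CNMD* (2.075, adjusted p = 2.75e-07) and *SOX9* were called higher from day 16 to day 23 (*SOX9* not without day 16 replicate 2, adjusted p = 0.0711, or day 23 replicate 2, adjusted p = 0.0876, nor with only the 4 libraries compared, adjusted p = 0.196), *SOX9* again on day 31, and 0 of the 6 from day 31 to day 38. Between days 16 and 45, 3 of the 6 were called higher (*SOX9*, *ACAN* and *CNMD*) and 0 lower, against 12.9 and 11.7% of all genes tested. The call of *ACAN* was lost without either day 16 library, day 31 replicate 1, day 38 replicate 2 or day 45 replicate 2 (adjusted p from 0.051 to 0.164). The 5 airway and goblet markers, of which *MUC5B* was the most abundant, summed to 16.1 and 14.2 CPM on day 16, 2.88 and 6.86 on day 23, 12.0 and 27.2 on day 31, 70.9 and 54.0 on day 38 and 147 and 94.9 on day 45. *MUC5AC* and *MUC5B* were called higher from day 31 to day 38 and 0 lower, *MUC5B* not by DESeq2 (adjusted p = 0.0746) or without day 31 replicate 1 (adjusted p = 0.07). Between days 16 and 45, 4 of the 5 were called higher and 0 lower, against 12.9 and 11.7% of all genes tested. *MUC5AC*, among the 4, was at 0.435 and 2.075 CPM on day 45, and its call was lost without day 45 replicate 2. From day 38 to day 45 *MUC5AC* was called lower, from 29.7 and 21.9 CPM, and *MUC5B* and *KRT5* higher (backgrounds 6.35 and 4.85%). *KRT5* was lost without any one of the 4 libraries compared, and *MUC5B* with DESeq2 (adjusted p = 0.0936). To day 23 *TP63* was called lower and *MUC5AC* higher, both lost without day 16 replicate 1 (backgrounds 5.33 and 5.6%). The epithelial markers summed to 1607 and 1710 CPM on day 31 and 1530 and 1335 on day 38, with *KRT18* (−1.07, adjusted p = 7.67e-08) and *KRT8* (−0.48, adjusted p = 0.00318) called lower and 0 of the 5 higher. The call of *KRT8* was lost without day 31 replicate 2 (adjusted p = 0.0644) or day 38 replicate 2 (adjusted p = 0.0935). The part of these cells in the collagen changes was not tested.

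**Figure D5:**
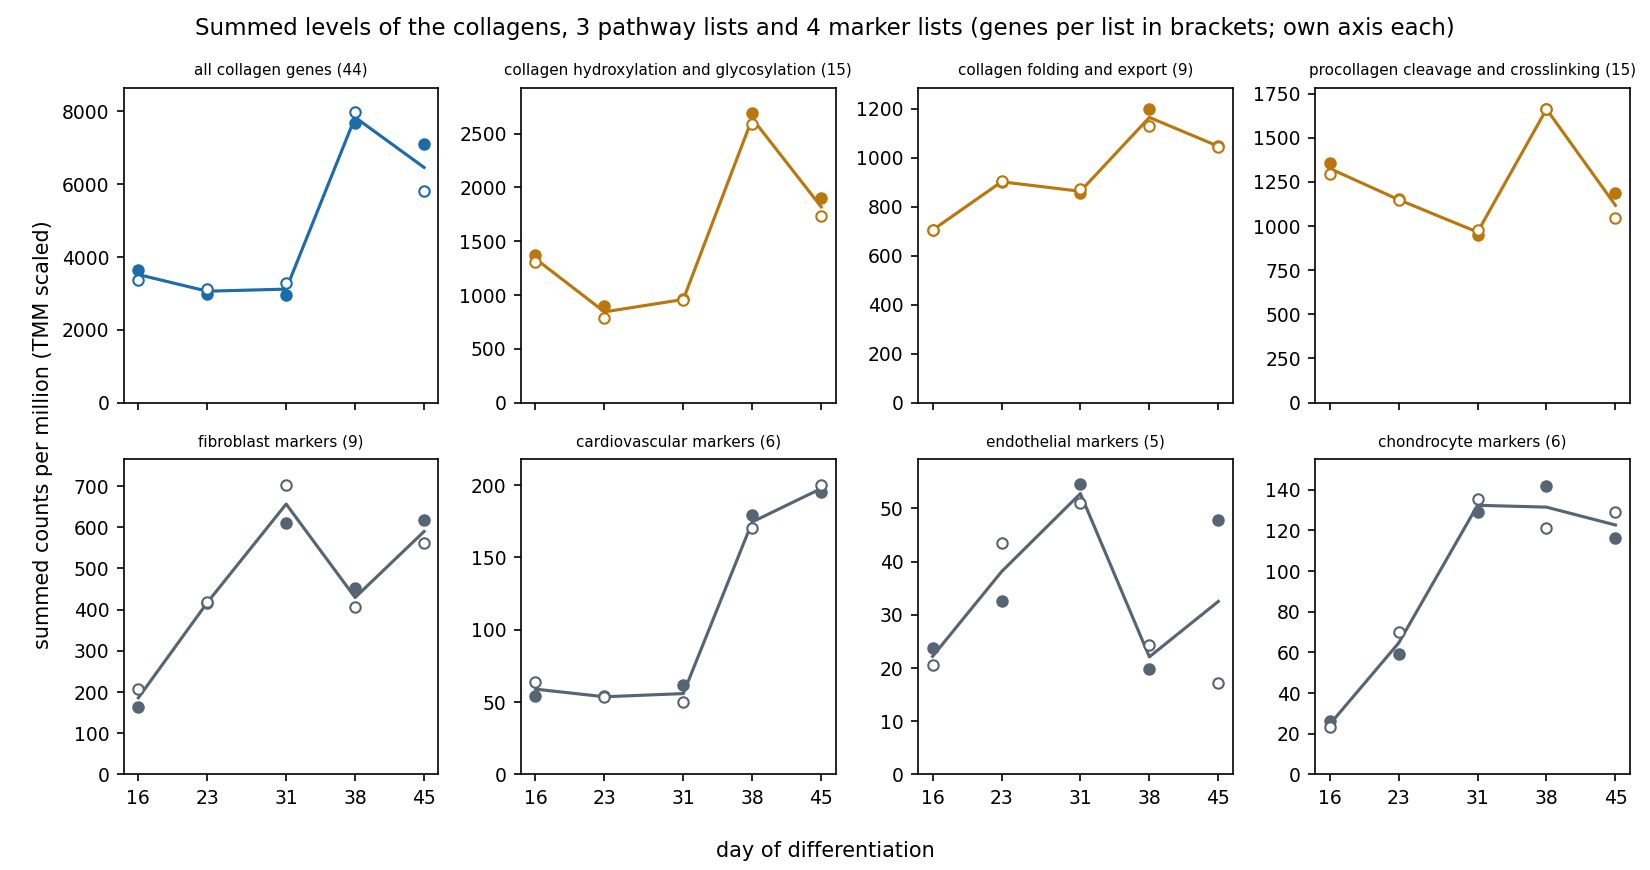
Summed CPM of the collagen genes, of 3 lists of collagen-processing genes and of 4 lists of markers of other cell types, with replicate 1 filled, replicate 2 open and a line for the mean of the day (linear axes from 0 that differ between panels). The hydroxylation and crosslinking lists peak on day 38 with the collagens, the fibroblast sum goes from 611 and 702 CPM on day 31 to 453 and 406 on day 38 through *POSTN* and *LUM* (6 of the 8 tested markers had positive log2 fold changes with TMM factors at this step, 1 of them called), and the cardiovascular markers go from 61.7 and 50.02 to 179 and 170 CPM.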

How the data were processed

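NKX2-1GFP+ cells sorted from organoids were measured by bulk RNA-seq. The authors trimmed reads with Trimmomatic, aligned them with HISAT2 to GRCh38.p13 and counted them per gene with HTSeq, per the study's methods and processing notes. They deposited raw counts for 28265 symbols, with no normalization and no stated strand setting, so reads of overlapping opposite-strand genes could not be separated. PCR copies were not separated, and the floor of 3 counts covers counting error only.

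From the deposited counts, the 21014 genes reaching 5 counts in 2 or more libraries were fitted with one mean per day over all 10 libraries (5 residual degrees of freedom) in R 4.3.3 with edgeR 4.0.16 (TMM factors, glmQLFit, glmQLFTest) and limma 3.58.1. P-values were adjusted by Benjamini-Hochberg over all genes tested, with a threshold of 0.05. Standard errors were derived from the log2 fold change and its F statistic and are approximate. Shares, ratios and list counts carry no test. CPM per kb uses the exon union of GENCODE 44, and glycine-X-Y stretches its coding sequences. Replicates of a day differed by more than sampling noise (chi-square over its degrees of freedom 8.38 to 13.7), which PCR copies could add to, so p-values measure the spread between these samples.

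The collagen genes, the classes and the pathway and marker lists were chosen with earlier results of these data known. Every collagen is accounted for. Those given in full had a mean of at least 10 CPM on a day and a called log2 fold change of at least 1 in size, were among the 5 highest per length, or belong to collagens I, IV, V, VI and IX; pathway genes named are the called ones with the largest and smallest change in a comparison, and others named (*SERPINH1*, *LOX*, *MMP1*, marker genes) were picked once their values were known. The fits were first tested on simulated data. Alternatives were DESeq2 1.42.0, library sizes alone, upper-quartile factors, 3 other filters, a fit of the 4 libraries alone, replicate number as block, a minimum log2 fold change of 1, and leaving out each library.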

Additional observations from a re-analysis of the deposited data

How the results depend on the processing

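The direction of each of the 85 calls made for the collagens described in full was the same under every alternative that gave a value, and 29 of them lost their call when at least 1 of the libraries was left out. These alternatives moved a count of collagens called by over 1.5 times. With a log2 fold change of at least 1 required, 5 were higher and 5 lower from day 16 to day 23, 1 lower from day 23 to day 31, 1 lower from day 31 to day 38 and 5 lower from day 38 to day 45. With only the 4 libraries compared, 4 were higher from day 38 to day 45. Leaving out each library in turn gave 5 to 8 higher and 5 to 9 lower from day 16 to day 23, 2 to 6 higher and 2 to 3 lower to day 31, 14 to 21 higher and 1 to 2 lower to day 38, 0 to 3 higher and 5 to 13 lower to day 45, 16 to 21 higher and 7 to 8 lower from day 16 to day 45, and 31 to 33 changed on any day. Of these ranges, those for any day, for both directions from day 16 to day 45, for the lower ones to day 31 and for the higher ones to day 38 stayed within 1.5 times of the counts with all libraries. Where this left 1 library for a day, that library was assumed to vary like the other days. The 16 genes that were among the 10 most abundant of any library were also taken out of the total of every library. The mean collagen share was then 0.4128% on day 16, 0.3556% on day 23, 0.364% on day 31, 0.8571% on day 38 and 0.7205% on day 45.

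The labels number the replicates of each day, but same-numbered libraries of different days did not deviate together, with correlations from −0.032 to 0.020. No pairing by number was seen. Because the correlations span all genes tested, low ones included, they cannot tell whether same-numbered libraries shared a differentiation run. The fit with the replicate block lost 0 of the 85 calls, and gave 21 collagens higher and 2 lower from day 31 to day 38. Depth limits the low genes, and what size of change could be seen in them was not measured: *COL6A5* was too low to be tested, and *COL11A2* and *COL9A1* stayed at or below 3.17 CPM with no call.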
